A study of Mus musculus with 18 samples.

Results

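The comparison described here is that of *Zeb1*-deficient with *Zeb1*-sufficient peritoneal macrophages after a single dose of lipopolysaccharide (LPS), a component of the bacterial outer membrane, across all genes counted. Its members were chosen by the genotype and treatment labels alone and are 6 of the 18 RNA-seq libraries of the series. The Zeb1∆M group held 3 libraries from Zeb1f/f LysM Cre mice, in which Cre recombinase is made from the locus of the lysozyme gene *Lyz2* and is therefore active in macrophages, monocytes and neutrophils. The Zeb1WT group held 3 libraries from Zeb1f/f mice, which carry the same floxed allele without Cre. The loss of *Zeb1* and the presence of Cre at the *Lyz2* locus thus go together and cannot be told apart. All animals were of the C57BL/6 strain, received the vehicle and then 1 dose of LPS, and gave peritoneal lavage cells that were sorted by flow cytometry on CD11b and the macrophage antigen encoded by *Adgre1*. Each library came from a pool of 2 to 3 mice, so that differences between individual mice were averaged within a library. The age of the mice is not given in the labels. The series also holds 3 libraries of each genotype after 2 doses of LPS (LPS + LPS) and 3 after metformin and LPS (Metformin + LPS), which are used below only to set the single dose results beside them.

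ZEB1 is a zinc finger transcription factor that binds E-box sequences and is best known as a repressor of epithelial genes such as the E-cadherin gene *Cdh1*. LPS is sensed by macrophages through the receptor TLR4 with its partner MD-2 (*Ly96*), which signal through MYD88 to NF-κB and AP-1 and through TRIF to IRF3, and within hours induce cytokines, chemokines, prostaglandin synthesis and a shift toward glycolysis. In the peritoneal cavity, resident large peritoneal macrophages depend on the transcription factor GATA6, and B cells, monocytes and, during inflammation, neutrophils are their neighbours.

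The 6 libraries held 14056454 to 20060026 counts in Zeb1∆M and 17296835 to 22774325 in Zeb1WT. A count was found for 15223 to 15586 genes in Zeb1∆M libraries and for 15737 to 16149 in Zeb1WT libraries. Genes of the mitochondrial genome took 0.529 to 0.659% of counts in Zeb1∆M and 0.672 to 1.12% in Zeb1WT. On the first principal component of the 6 libraries, with 33.2% of the variance, Zeb1∆M libraries lay at -46.5, -44.7 and -33.2 and Zeb1WT libraries at 47.9, 48.4 and 28.0, so that replicate 3 of each genotype lay nearest to the other genotype. The second component, with 22.4%, set replicates 1 and 2 of Zeb1∆M apart from each other (50 and -63.2). Nothing in the sources states that replicates came from separate experiments. The p-values rest on a spread between libraries within groups, estimated over 17 libraries of 6 groups and not over these libraries alone.

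*Zeb1* (ENSMUSG00000024238.15) stood at 2.26, 2.95 and 1.35 CPM (counts relative to library size, scaled with TMM factors) in Zeb1∆M and at 6.27, 6.56 and 7.06 CPM in Zeb1WT, or 2.19 ± 0.80 against 6.63 ± 0.40 (SD, n = 3 each). The groups did not overlap, and transcript from the locus was still counted in every Zeb1∆M library. Counts are per gene and not split by exon, so the floxed part was not read on its own. The log2 fold change, Zeb1∆M over Zeb1WT in this and all later values, was -1.60 (standard error, SE, 0.34, adjusted p = 0.0177, edgeR quasi-likelihood test with Benjamini-Hochberg adjustment). That call was lost without replicate 1 of Zeb1∆M, without replicate 3 of Zeb1∆M (edgeR adjusted p = 0.0677 and 0.101), and when only the single dose groups were fitted. The paralogue *Zeb2*, which the fit did not call (-0.04, SE 0.18, edgeR adjusted p = 0.957), stood at 82.7, 136 and 95.2 CPM in Zeb1∆M and at 98.5, 119 and 105 CPM in Zeb1WT. Of 21 listed epithelial genes known as ZEB1 targets, 8 had enough counts to be tested and none was called. Among them *Cdh1* had 2 counts over the 3 Zeb1∆M libraries and 0 over the 3 Zeb1WT libraries, so a difference in it was not detectable at this depth.

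The macrophage identity of the cells was read from 10 markers, all of which were tested. *Adgre1*, which encodes the antigen used in the sort, stood at 2181, 2238 and 2232 CPM in Zeb1∆M and at 2034, 2717 and 1739 CPM in Zeb1WT (log2 fold change 0.04, SE 0.22, edgeR adjusted p = 0.972). *Csf1r*, the receptor of macrophage colony-stimulating factor, stood at 623, 626 and 742 CPM against 629, 812 and 444 CPM (0.08, SE 0.25, edgeR adjusted p = 0.928). Both genes overlapped between genotypes. Of the 10 markers only *Lgals3*, the galectin-3 gene, was called, and it was lower (52.7, 60.4 and 64.3 CPM in Zeb1∆M, 127, 123 and 99.4 CPM in Zeb1WT, -0.98, SE 0.23, edgeR adjusted p = 0.0322), a call kept only without replicate 3 of Zeb1WT when libraries were left out in turn (edgeR adjusted p up to 0.137). The median log2 fold change of the 10 was -0.12, beside 0.01 over all genes tested.

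The lysozyme genes were read apart, since Cre sits at one of them. *Lyz2*, whose locus carries Cre in the Zeb1∆M mice, stood at 37352, 22086 and 29844 CPM in Zeb1∆M and at 38879, 50942 and 41839 CPM in Zeb1WT. Every Zeb1∆M library lay below every Zeb1WT library, but the difference was not called (-0.56, SE 0.34, edgeR adjusted p = 0.482). *Lyz1*, the second lysozyme gene and a near-identical neighbour of *Lyz2*, stood at 5993, 2615 and 3805 CPM in Zeb1∆M and at 1062, 868 and 679 CPM in Zeb1WT (2.25, SE 0.43, edgeR adjusted p = 0.00969). Because the copies are so alike, how reads were shared between them by the counting is uncertain, and the *Lyz1* call was lost without replicate 1 of Zeb1∆M (edgeR adjusted p = 0.0524).

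**Figure D1:**
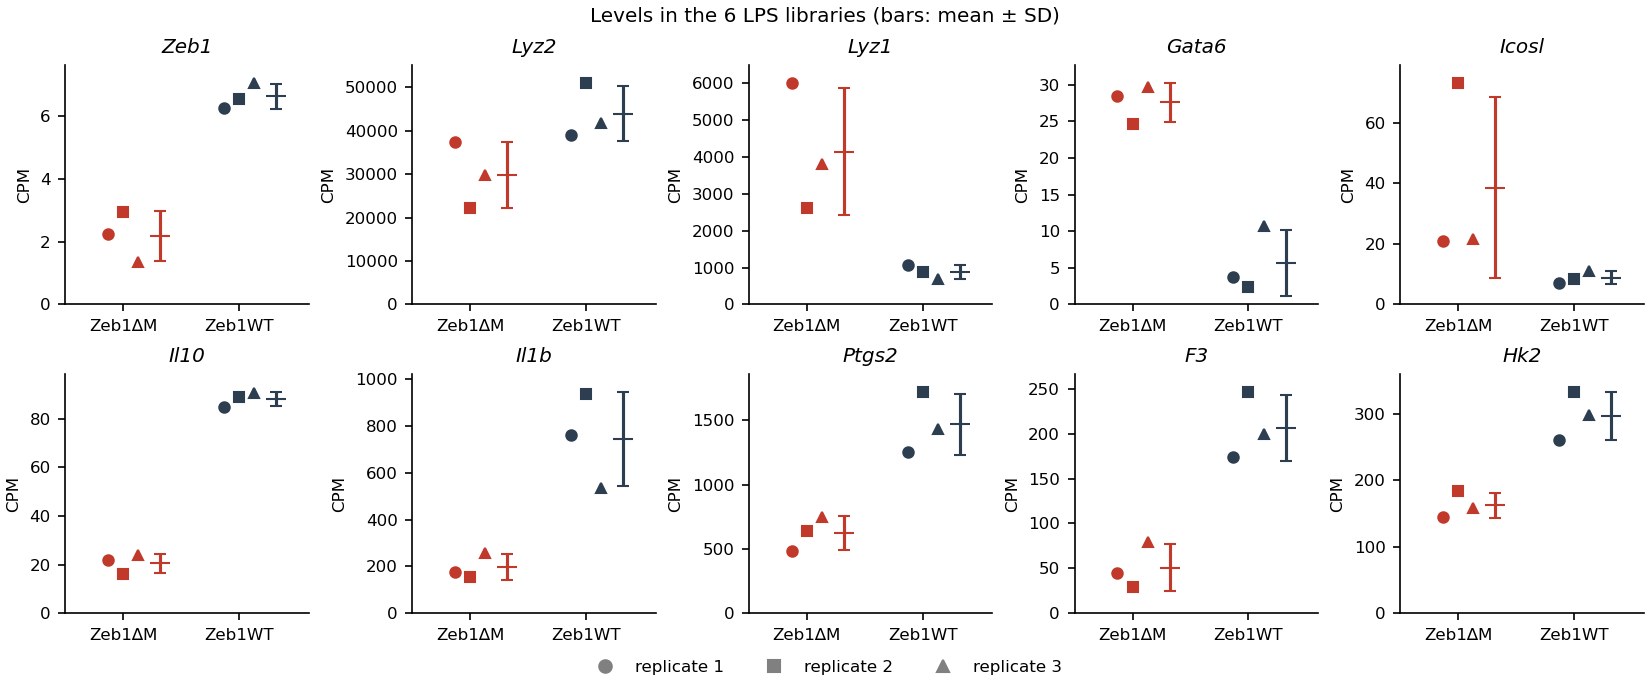
Levels of 10 genes in CPM (vertical axes, each from 0) in the 3 Zeb1∆M LPS libraries (red, left) and the 3 Zeb1WT LPS libraries (dark blue, right), with circle, square and triangle for replicates 1, 2 and 3 and bars for mean ± SD. *Zeb1* (1.35 to 2.95 against 6.27 to 7.06 CPM), *Lyz2*, *Il10*, *Il1b*, *Ptgs2*, *F3* and *Hk2* were lower in every Zeb1∆M library than in any Zeb1WT library, *Lyz1*, *Gata6* and *Icosl* higher.

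Across the genome, 244 of 13947 genes tested (1.75%) passed an adjusted p under 0.05 in edgeR and are spoken of below as called. Of these, 58 (0.416% of genes tested) were higher and 186 (1.33%) were lower in Zeb1∆M. Every count of called genes in a list below is to be read beside these shares. Without adjustment 2024 genes had a p under 0.05. The median log2 fold change over all genes tested was 0.01, with 48.8% of genes below 0. TMM scaling places the bulk of genes near 0, so this balance follows largely from the scaling. The groups did not overlap in 1376 genes that were higher (9.87% of genes tested) and 1485 that were lower (10.6%), called or not, against which the absence of overlap in single genes is to be read. The smallest change called was 0.60 on the log2 scale and the median size of the called changes was 1.47. Protein-coding genes made up 57 of the higher and 173 of the lower genes.

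The number and the balance of the called genes rested in part on replicate 3 of Zeb1WT. Among the 58 higher genes it was the Zeb1WT library closest to the Zeb1∆M mean for 32, while replicates 1 and 2 were closest for 19 and 7. Among the 186 lower genes it was closest for 44, and replicates 1 and 2 for 51 and 91. Without replicate 3 of Zeb1WT, 457 genes were called, 262 higher and 195 lower. With any other of the 6 libraries left out, 107 to 161 genes were called and the lower genes again outnumbered the higher. The gene *Bcl3*, a nuclear cofactor of NF-κB, shows the pattern, with 265, 317 and 311 CPM in Zeb1∆M and 18.8, 39.6 and 263 CPM in Zeb1WT (1.48, SE 0.72, edgeR adjusted p = 0.373). *Odc1*, the first enzyme of polyamine synthesis, stood likewise at 131, 139.7 and 159 CPM in Zeb1∆M and at 32.2, 34.5 and 146 CPM in Zeb1WT (1.02, SE 0.44, edgeR adjusted p = 0.30). These 2 genes were chosen after their values were seen. What sets that library apart was not tested. No gene of the 244 changed sign in any of 14 other settings or leave-outs, and 67 of them (6 higher, 61 lower) were called in every one.

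**Figure D2:**
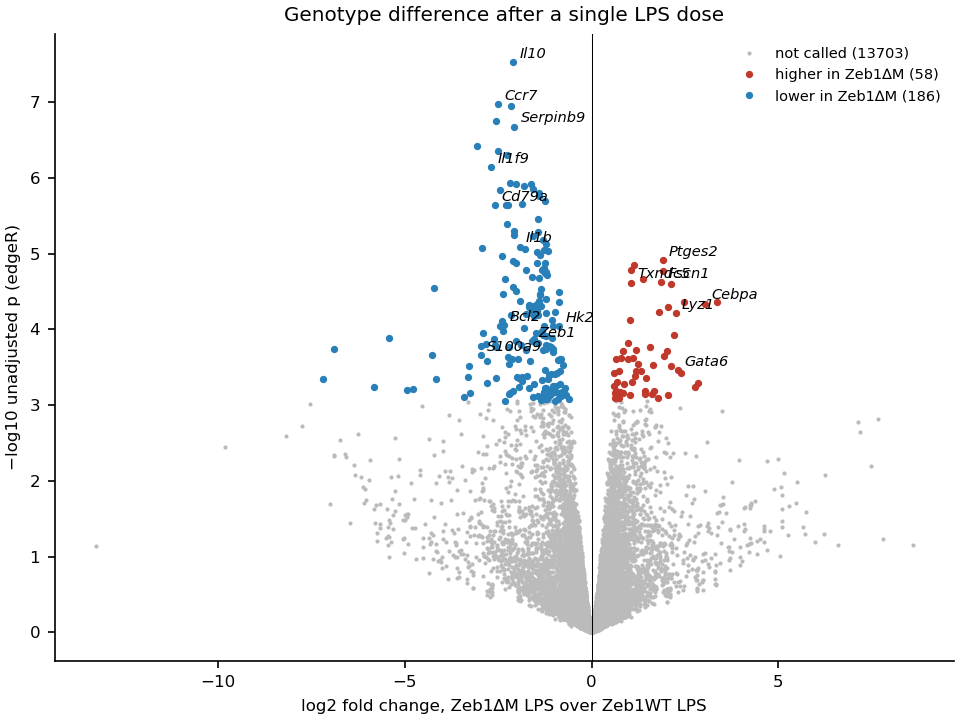
Log2 fold change of each of 13947 genes, Zeb1∆M LPS over Zeb1WT LPS (horizontal axis), against the -log10 of its unadjusted edgeR p (vertical axis). The 186 genes called lower in Zeb1∆M (blue) reach smaller p-values than the 58 called higher (red), with *Il10*, *Ccr7* and *Serpinb9* near the top, and the other genes are in grey.

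Genes named from the top of the higher side were those with a mean log2 CPM of at least 3 and no overlap between libraries, the 15 with the largest changes. *Gata6*, the transcription factor that maintains large peritoneal macrophages, stood at 28.4, 24.6 and 29.8 CPM in Zeb1∆M and at 3.77, 2.34 and 10.7 CPM in Zeb1WT. This was the largest change of the 15 (2.31, SE 0.52, edgeR adjusted p = 0.0305), but with libraries left out in turn its call was kept only without replicate 3 of Zeb1WT (edgeR adjusted p up to 0.130). *Icosl*, the ligand of the T cell costimulator ICOS, stood at 21.1, 73.1 and 21.5 CPM in Zeb1∆M and at 7.02, 8.45 and 11.2 CPM in Zeb1WT (2.12, SE 0.38, edgeR adjusted p = 0.00593). *Jag1*, a ligand of Notch receptors, stood at 22.7, 15.1 and 15.6 CPM against 3.16, 2.49 and 7.24 CPM (2.06, SE 0.39, edgeR adjusted p = 0.00866), a call lost without replicate 1 of Zeb1WT (edgeR adjusted p = 0.0582). That both ligand genes were higher in every Zeb1∆M library was required by the rule, and *Icosl* had 1 Zeb1∆M library far above the other 2.

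*Ptges2*, a prostaglandin E synthase, stood at 41.0, 39.3 and 40.4 CPM in Zeb1∆M and at 6.80, 5.77 and 19.9 CPM in Zeb1WT (1.90, SE 0.32, edgeR adjusted p = 0.00431). *Fscn1*, the actin-bundling protein fascin, stood at 72.0, 78.4 and 53.8 CPM in Zeb1∆M and at 12.4, 24.4 and 19.2 CPM in Zeb1WT (1.87, SE 0.33, edgeR adjusted p = 0.00573). *Fam91a1*, which takes part in vesicle capture at the Golgi, stood at 109.6, 112 and 115 CPM in Zeb1∆M and at 34.4, 41.5 and 54.7 CPM in Zeb1WT (1.36, SE 0.24, edgeR adjusted p = 0.00537). The Zeb1∆M libraries of *Ptges2* and *Fam91a1* were close to each other, and the Zeb1WT libraries ranged more widely, replicate 3 being the highest. The others of the 15 were *Mtmr1* (2.02), *Dnajc25* (1.93), *Tprgl* (1.67), *Creb3l1* (1.62), *Fam214b* (1.46), *Desi2* (1.43), *Usp1* (1.42) and *Ubp1* (1.32), with *Lyz1* given above. Their edgeR adjusted p-values ran from 0.0201 in *Mtmr1* to 0.0449 in *Usp1*. Of these 8, the calls of *Dnajc25*, *Tprgl*, *Creb3l1*, *Desi2*, *Usp1* and *Ubp1* were kept only without replicate 3 of Zeb1WT among the leave-outs, that of *Fam214b* was lost without any Zeb1WT library or replicate 2 of Zeb1∆M, and that of *Mtmr1* without replicate 1 or 2 of Zeb1WT or replicate 2 of Zeb1∆M (edgeR adjusted p up to 0.183 in *Usp1*). *Ptges2*, *Fscn1*, *Fam91a1* and *Icosl* were called with each of the 6 libraries left out, but *Ptges2* and *Icosl* were not called when only the groups compared were fitted (edgeR adjusted p = 0.0964 and 0.118), nor *Fam91a1* with all 18 libraries (edgeR adjusted p = 0.0661).

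Outside that rule, and chosen after their values were seen, 3 further higher genes are given for their role. *Cebpa*, a transcription factor of the myeloid lineage, stood at 12.7, 16.1 and 16.8 CPM in Zeb1∆M and at 1.32, 0.845 and 3.44 CPM in Zeb1WT (3.04, SE 0.57, edgeR adjusted p = 0.00860, and 0.0535 without replicate 1 of Zeb1WT). *Sec24d*, a coat protein of the vesicles that leave the endoplasmic reticulum, stood at 80.9, 64.9 and 71.8 CPM in Zeb1∆M and at 40.2, 22.9 and 36.3 CPM in Zeb1WT (1.13, SE 0.19, edgeR adjusted p = 0.00448). *Txndc5*, a disulfide isomerase of the endoplasmic reticulum, stood at 184, 144 and 166 CPM against 80.0, 58.8 and 97.8 CPM (1.06, SE 0.19, edgeR adjusted p = 0.00580). No library overlapped in any of these genes, and *Sec24d*, *Txndc5* and *Fscn1* were called in all 14 other settings.

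On the lower side, the 15 largest changes under the same rule included genes of neutrophils, of B cells and of activated antigen-presenting cells. *Mrgpra2b*, a receptor of the Mas-related family, had the largest change (3.64, 1.70 and 3.45 CPM in Zeb1∆M, 26.1, 17.1 and 30.3 CPM in Zeb1WT, -3.07, SE 0.40, edgeR adjusted p = 0.000865). *S100a8* and *S100a9* encode the calprotectin subunits that neutrophils and monocytes release. *S100a9* stood at 10.1, 6.10 and 19.4 CPM in Zeb1∆M and at 123, 57.5 and 98.3 CPM in Zeb1WT (-2.97, SE 0.60, edgeR adjusted p = 0.0222, and up to 0.117 without replicate 1 of Zeb1WT or replicate 1 or 2 of Zeb1∆M). *S100a8* stood at 28.6, 9.89 and 25.9 CPM in Zeb1∆M and at 139.9, 65.1 and 147 CPM in Zeb1WT (-2.45, SE 0.47, edgeR adjusted p = 0.0126), a call lost with all 18 libraries and with only the groups compared (edgeR adjusted p = 0.0592 and 0.0648). In both genes the highest Zeb1∆M library lay below the lowest Zeb1WT library, which the rule required. *Retnlg*, also made by neutrophils, was lower with 6.05, 10.9 and 12.5 CPM in Zeb1∆M against 48.1, 48.2 and 43.6 CPM in Zeb1WT (-2.24, SE 0.47, edgeR adjusted p = 0.0229), a call kept only without replicate 3 of Zeb1WT (edgeR adjusted p up to 0.111).

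Among B cell genes, *Ms4a1*, which encodes CD20, stood at 7.87, 5.80 and 8.50 CPM in Zeb1∆M and at 44.0, 36.3 and 46.2 CPM in Zeb1WT (-2.51, SE 0.33, edgeR adjusted p = 0.000865). *Cd79a*, a chain of the B cell receptor complex, and *Igkc*, the kappa light chain constant region, were lower, with log2 fold changes of -2.59 and -2.24 and an edgeR adjusted p of 0.00146 for each. *Irf4*, a transcription factor of B cells, dendritic cells and some macrophages, stood at 5.17, 4.70 and 13 CPM in Zeb1∆M and at 44.2, 26.7 and 47.8 CPM in Zeb1WT (-2.37, SE 0.48, edgeR adjusted p = 0.0143). *Ccr7*, the chemokine receptor that guides dendritic cells and lymphocytes to lymph nodes, stood at 31, 16.6 and 44.5 CPM in Zeb1∆M and at 200.3, 165 and 158 CPM in Zeb1WT (-2.51, SE 0.30, edgeR adjusted p = 0.000518). None of these groups overlapped, which the rule required. *Zbtb32* (-2.46), *Rgs1* (-2.39), *Gimap4* (-2.29) and *Bcar3* (-2.26) were in the list as well, beside the interleukin 1 family member *Il1f9*, given below. Calls of *Irf4* and *Rgs1* were lost without replicate 1 or without replicate 2 of Zeb1∆M (edgeR adjusted p up to 0.0796 in *Irf4*), and *Ccr7*, *Ms4a1*, *Cd79a*, *Igkc*, *Zbtb32*, *Gimap4* and *Bcar3* were called in all 14 other settings.

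Among markers of other cells of the cavity, the B cell and neutrophil lists had several lower calls. Of the 18 B cell markers listed, 17 were tested, all 17 had log2 fold changes below 0 (median -1.99) and 7 were called lower, among them *Cd79a*, *Ms4a1*, *Igkc*, *Pou2af1*, *Ighm* and *Bank1*, of which *Bank1* was called among the leave-outs only without replicate 2 of Zeb1∆M. Their summed level ran from 163 to 220.1 CPM in Zeb1∆M and from 594 to 897 CPM in Zeb1WT, and *Vpreb3* had no counts in any of the 6 libraries. Of 29 neutrophil markers, 26 were tested and 6 were called lower (median -2.22), with summed levels of 5256 to 5929.7 CPM in Zeb1∆M and 6208 to 6856 CPM in Zeb1WT. That sum was carried by genes that macrophages express as well. Of single markers, *Mpo* was at 0 in every LPS library, *Elane* had 7 counts over Zeb1∆M and 2 over Zeb1WT, and *Ly6g* had 7 against 66. How many neutrophils the libraries held cannot be read from these counts. The 7 tested T and NK cell markers summed to 2.55 to 8.10 CPM in Zeb1∆M and to 7.77 to 11.39 CPM in Zeb1WT, with no call. Of 6 eosinophil markers tested only *Ear6* was called lower, and the summed levels overlapped (22.0 to 247 CPM in Zeb1∆M, 101 to 218 CPM in Zeb1WT). The *Ear6* call was lost without replicate 1 of Zeb1WT or replicate 1 or 2 of Zeb1∆M (edgeR adjusted p up to 0.0712). Of 15 dendritic cell markers 12 were tested, of which *Fscn1* was called higher and *Ccr7* lower, and 10 lay below 0 (median -1.60). Their sums overlapped (367 to 1109.7 CPM in Zeb1∆M, 504 to 862 CPM in Zeb1WT), and *Siglech*, a marker of plasmacytoid dendritic cells, had no counts. Of 18 monocyte and small peritoneal macrophage genes, all tested, *Irf4* and *Ly6c2* were called lower and 12 lay below 0 (median -0.30), with overlapping sums of 785 to 1038 CPM in Zeb1∆M and 977 to 1373 CPM in Zeb1WT. The *Ly6c2* call was lost with the replicate block and without replicate 1 of Zeb1WT or any Zeb1∆M library (edgeR adjusted p up to 0.142). The mast cell, stromal and erythroid lists, with 7, 5 and 5 genes tested, had no call.

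Of the 186 lower genes, 7 were members of the B cell list and 6 of the neutrophil list. Lower genes outside these lists that such cells also express were not counted. In bulk libraries such as these, fewer cells of a type and less RNA per cell cannot be told apart. Many of the cytokine, chemokine and activation genes below are also expressed by neutrophils, B cells, dendritic cells or monocytes, and the part of those cells in the results was not tested.

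**Figure D3:**
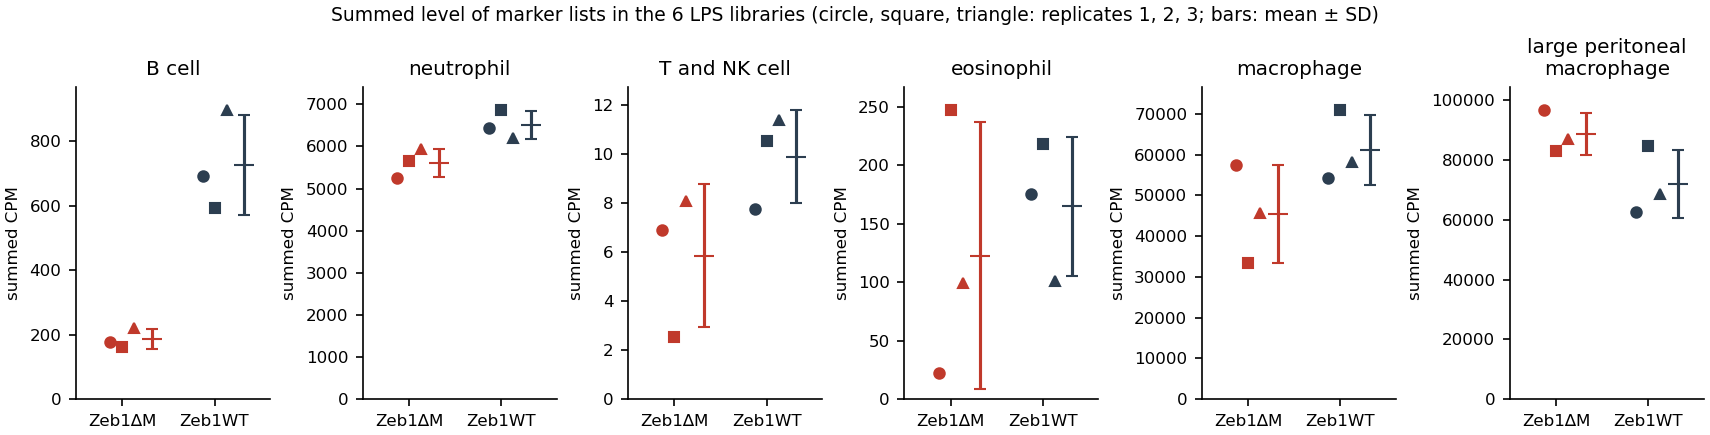
Summed level in CPM (vertical axes, each from 0) of 6 marker lists in the 3 Zeb1∆M LPS libraries (red, left) and the 3 Zeb1WT LPS libraries (dark blue, right), with bars for mean ± SD. B cell markers lay at 163 to 220.1 CPM in Zeb1∆M and 594 to 897 CPM in Zeb1WT, whereas the eosinophil and macrophage sums overlapped between genotypes. Most of the macrophage sum in every library was *Lyz2*, whose locus carries Cre in Zeb1∆M.

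Cytokine and chemokine genes called in the fit of 17 libraries were all lower in Zeb1∆M. *Il10* (ENSMUSG00000016529.5), the main anti-inflammatory cytokine of macrophages, had the smallest adjusted p of all genes, with 21.8, 16.3 and 23.9 CPM in Zeb1∆M and 84.7, 88.8 and 90.6 CPM in Zeb1WT (-2.09, SE 0.23, edgeR adjusted p = 0.000414). *Inhba*, which encodes the subunit of activin A, stood at 3.79, 1.85 and 3.75 CPM in Zeb1∆M and at 13.2, 15.8 and 13.6 CPM in Zeb1WT (-2.19, SE 0.31, edgeR adjusted p = 0.00133). *Il6* stood at 36.3, 62.7 and 45.0 CPM in Zeb1∆M and at 118, 125 and 109 CPM in Zeb1WT (-1.29, SE 0.28, edgeR adjusted p = 0.0198). Each Zeb1WT library exceeded every Zeb1∆M library in all 3 genes, so an anti-inflammatory and a pro-inflammatory cytokine were lower together. *Tnf*, the first cytokine of the response, was lower by less, at 55.6, 73.9 and 77.4 CPM in Zeb1∆M against 112, 131 and 109 CPM in Zeb1WT (-0.77, SE 0.17, edgeR adjusted p = 0.0264), and its call was lost without replicate 1 or 2 of either genotype (edgeR adjusted p up to 0.139). Of the 16 tested genes of the cytokine list 4 were called lower and none higher (median -0.79, 15 of 16 below 0). *Il10* and *Inhba* were called in all 14 other settings, whereas the *Il6* call was lost with any of 4 libraries left out in turn, replicates 1 and 2 of Zeb1WT and 1 and 3 of Zeb1∆M, (edgeR adjusted p up to 0.109), and with all 18 libraries in the fit. In the TNF superfamily 2 of 19 tested genes were called lower, *Tnf* and the lymphotoxin gene *Lta*, which had 3 counts over the Zeb1∆M libraries and 99 over the Zeb1WT libraries. The *Lta* call (edgeR adjusted p = 0.0432) was lost with each of the 6 libraries left out (up to 0.151), with all 18 libraries and with the replicate block.

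In the interleukin 1 family 13 of 16 listed genes were tested, and 3 were called lower (median -0.45). *Il1b*, the secreted fever-inducing cytokine, stood at 176, 154 and 259 CPM in Zeb1∆M and at 762, 935 and 536 CPM in Zeb1WT (-1.92, SE 0.31, edgeR adjusted p = 0.00363). *Il1f9*, also called IL-36γ, stood at 8.67, 6.15 and 11.8 CPM in Zeb1∆M and at 62.7, 40.4 and 68.6 CPM in Zeb1WT (-2.69, SE 0.36, edgeR adjusted p = 0.00111). *Il1r2*, a decoy receptor that binds interleukin 1 without signalling and is also a neutrophil marker, stood at 12.8, 5.40 and 11.3 CPM in Zeb1∆M and at 53.4, 24.5 and 57.6 CPM in Zeb1WT (-2.20, SE 0.47, edgeR adjusted p = 0.0264), and among the leave-outs it was called only without replicate 2 or 3 of Zeb1WT. It was also not called with all 18 libraries (edgeR adjusted p = 0.117). A ligand, a second ligand of the same family and a decoy receptor were thus lower without overlap, which the naming rule required of *Il1f9*. *Il1a* had 1196, 885 and 1043 CPM in Zeb1∆M and 1914, 2666 and 1732 CPM in Zeb1WT, without overlap but not called (-1.01, SE 0.33, edgeR adjusted p = 0.133). The receptor antagonist *Il1rn* had 7366, 4893 and 7118 CPM against 9762, 10484 and 9778 CPM and was not called (-0.63, SE 0.30, edgeR adjusted p = 0.336).

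Among the CC chemokines, which mainly attract monocytes and lymphocytes, 3 of 13 tested were called lower and none higher (median -0.99). *Ccl3* stood at 265, 332 and 304 CPM in Zeb1∆M and at 736, 1292 and 719 CPM in Zeb1WT (-1.61, SE 0.31, edgeR adjusted p = 0.00969). *Ccl4* stood at 1216, 778 and 1079 CPM in Zeb1∆M and at 2162, 4148 and 2572 CPM in Zeb1WT (-1.53, SE 0.32, edgeR adjusted p = 0.0168). *Ccl22*, made by dendritic cells and alternatively activated macrophages, was lower by -2.32 (2.33, 2.05 and 2.35 CPM in Zeb1∆M, 16.1, 10.9 and 6.65 CPM in Zeb1WT, SE 0.41, edgeR adjusted p = 0.00537). Groups did not overlap in any of the 3, but the *Ccl3* call was lost without replicate 2 of Zeb1WT or replicate 1 of Zeb1∆M (edgeR adjusted p = 0.0557 and 0.0627) and the *Ccl4* call without replicate 2 of Zeb1WT or replicate 2 or 3 of Zeb1∆M (edgeR adjusted p up to 0.0916). *Ccl2*, the main monocyte attractant, had 369, 282 and 332 CPM in Zeb1∆M and 475, 741 and 736 CPM in Zeb1WT and was not called (-0.99, SE 0.32, edgeR adjusted p = 0.138).

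In the CXC chemokines, 1 of 13 tested was called, *Cxcl3*, a neutrophil attractant, with 45.5, 56.8 and 61.8 CPM in Zeb1∆M and 297, 237 and 74.1 CPM in Zeb1WT (-1.89, SE 0.39, edgeR adjusted p = 0.0189). Its call was kept only without replicate 3 of Zeb1WT, the Zeb1WT library nearest to Zeb1∆M (edgeR adjusted p up to 0.0970). The B cell attractant *Cxcl13*, a gene of large peritoneal macrophages, pointed the other way with 15130.0, 5035 and 8571 CPM in Zeb1∆M and 3678, 4825 and 1648 CPM in Zeb1WT, without overlap but not called (1.5, SE 0.42, edgeR adjusted p = 0.0829). The interferon-induced *Cxcl10* had 4231, 3903 and 5309.8 CPM in Zeb1∆M and 8151, 10443 and 5606 CPM in Zeb1WT (-0.85, SE 0.30, edgeR adjusted p = 0.179). The Zeb1WT values of *Cxcl10* and *Cxcl3* had their lowest member in replicate 3.

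**Figure D4:**
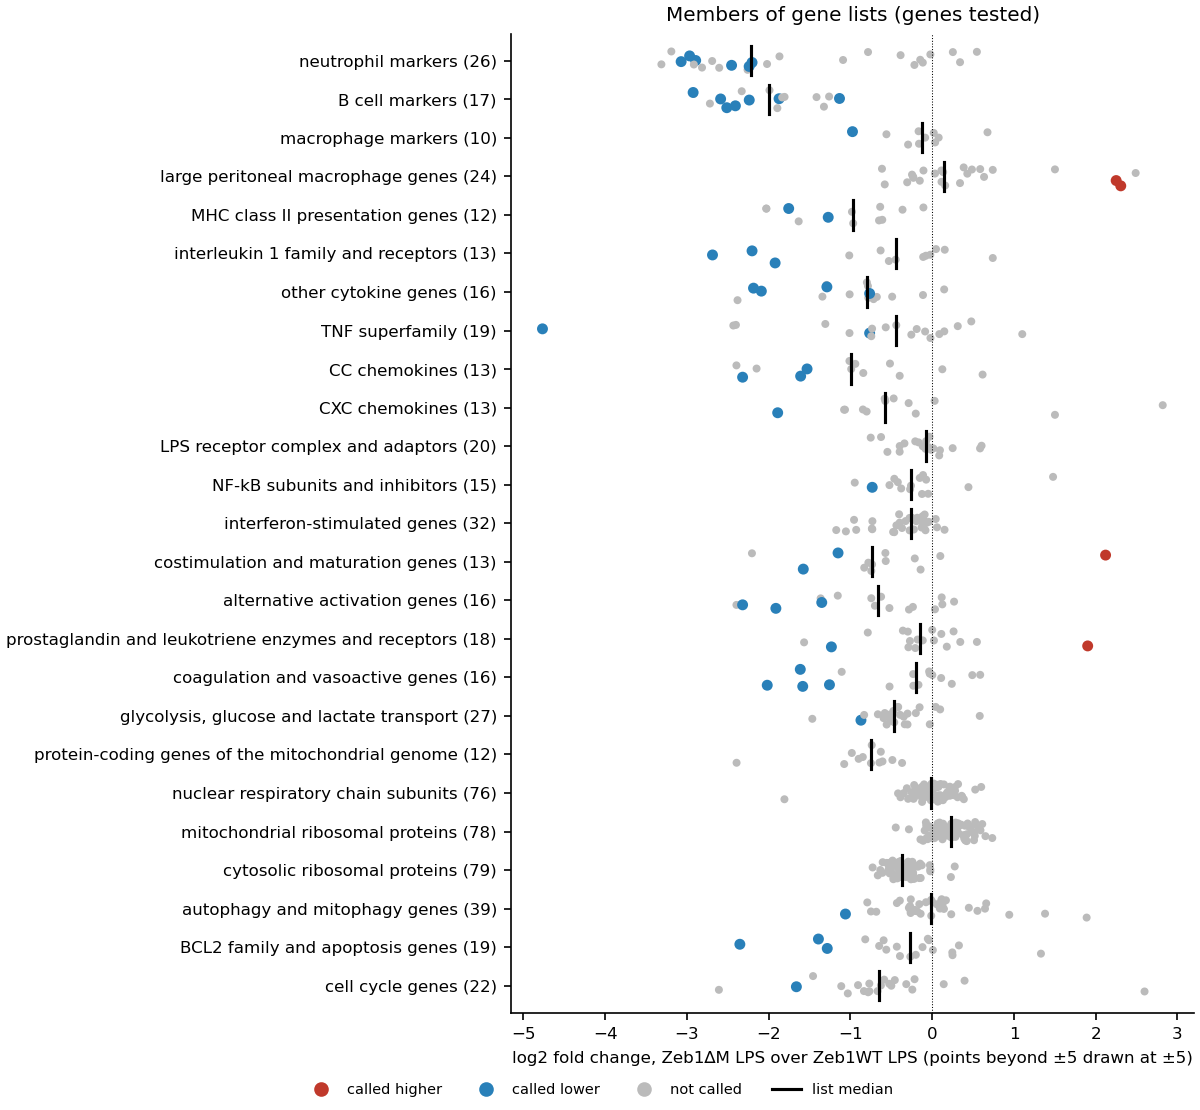
Log2 fold change of each tested gene of 25 lists, Zeb1∆M LPS over Zeb1WT LPS (horizontal axis), 1 list per row with the number of genes tested, called genes in blue (lower) or red (higher), others in grey, and a bar at the list median. Neutrophil (-2.22), B cell (-1.99), CC chemokine (-0.99) and cytokine (-0.79) lists have medians below 0, while the lists of the LPS receptor complex (-0.08) and of the nuclear respiratory chain (-0.01) lie near 0.

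Within prostaglandin and leukotriene genes, 18 of which were tested, 1 was higher and 1 lower. *Ptgs2*, the inducible cyclooxygenase COX-2, stood at 486, 639 and 749 CPM in Zeb1∆M and at 1252, 1720.4 and 1435 CPM in Zeb1WT (-1.23, SE 0.30, edgeR adjusted p = 0.0415). The enzyme at the first committed step was thus lower and *Ptges2*, a terminal synthase, higher. Both were without overlap, which the naming rule required of *Ptges2*. The *Ptgs2* call was kept only without replicate 3 of Zeb1WT among the leave-outs (edgeR adjusted p up to 0.169). In the coagulation and vasoactive list, 4 of 16 tested genes were called, all lower. *F3*, tissue factor and initiator of clotting, stood at 44.7, 29.0 and 79.2 CPM in Zeb1∆M and at 174, 246 and 199 CPM in Zeb1WT (-2.02, SE 0.34, edgeR adjusted p = 0.00434). *Procr*, the endothelial protein C receptor that favours anticoagulant signalling, stood at 33.7, 19.5 and 45.5 CPM against 97.4, 104 and 99.98 CPM (-1.61, SE 0.23, edgeR adjusted p = 0.00133). The vasoconstrictor precursor *Edn1* (-1.26, edgeR adjusted p = 0.00493) and the growth factor *Hbegf* (-1.58, edgeR adjusted p = 0.00537) were lower as well. All 4 were called in all 14 other settings.

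Because ZEB1 binds E-boxes, the promoters of the called genes were read for CACCTG, or CAGGTG on the other strand, the E-box form it is known to bind. The sequences of 2 lower genes and 1 higher gene show where such a match lies. The 250 bases before the annotated start of *Ptgs2*, *Il1f9* and *Mtmr1*, all on the plus strand of GRCm38.p6 and taken from RefSeq, are given 5′ to 3′ in lower case with the match in capitals.
Ptgs2 chr1:150099781-150100030: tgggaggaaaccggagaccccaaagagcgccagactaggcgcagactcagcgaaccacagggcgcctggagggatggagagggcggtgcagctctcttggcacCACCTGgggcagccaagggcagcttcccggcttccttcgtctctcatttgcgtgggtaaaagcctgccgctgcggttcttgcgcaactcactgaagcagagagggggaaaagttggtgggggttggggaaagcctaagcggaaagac
Il1f9 chr2:24186226-24186475: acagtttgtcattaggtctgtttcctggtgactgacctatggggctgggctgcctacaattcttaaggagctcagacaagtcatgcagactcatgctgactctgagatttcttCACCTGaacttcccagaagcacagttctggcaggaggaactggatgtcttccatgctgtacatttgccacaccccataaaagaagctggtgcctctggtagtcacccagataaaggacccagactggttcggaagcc
Mtmr1 chrX:71364510-71364759: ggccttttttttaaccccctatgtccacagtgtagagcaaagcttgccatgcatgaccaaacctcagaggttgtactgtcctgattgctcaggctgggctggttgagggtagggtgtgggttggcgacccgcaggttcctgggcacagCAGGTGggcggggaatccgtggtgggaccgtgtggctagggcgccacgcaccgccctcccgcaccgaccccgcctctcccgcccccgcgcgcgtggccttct

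In *Ptgs2* the match began 147 bases before the start, in *Il1f9* 137 and in *Mtmr1*, where CAGGTG was read on the gene's own strand, 102. In windows from 250 bases before the start to 50 after it, the match was found in 10 of 42 higher genes with a window (23.8%), in 38 of 137 lower genes (27.7%) and in 1973 of 9963 genes tested (19.8%). Of all 32851 windows 20.2% held it. Matches are a property of the letters alone, and nothing measured here tells whether ZEB1 bound there.

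Genes of LPS sensing were not called. *Tlr4*, the LPS receptor, stood at 48.3, 49.4 and 46.5 CPM in Zeb1∆M and at 58.7, 58.2 and 49.7 CPM in Zeb1WT (-0.21, SE 0.20, edgeR adjusted p = 0.708). *Ly96*, encoding MD-2, and the adaptor *Myd88* had log2 fold changes of -0.08 (SE 0.23) and 0.01 (SE 0.19), and none of 20 receptor and adaptor genes was called (median -0.08). Among 15 NF-κB genes only *Rel*, the c-Rel subunit, was called, and it was lower (48.1, 55.1 and 46.4 CPM in Zeb1∆M, 69.7, 84.5 and 94.7 CPM in Zeb1WT, -0.73, SE 0.18, edgeR adjusted p = 0.0443), a call kept only without replicate 1 of Zeb1WT (edgeR adjusted p up to 0.150). *Nfkb1*, the p105 precursor of p50, stood at 91.3, 73.6 and 83.1 CPM against 98.7, 116 and 108 CPM and was not called (-0.38, SE 0.24, edgeR adjusted p = 0.499). Of 32 interferon-stimulated genes none was called, and 29 lay below 0 (median -0.26). The AP-1 list had 1 call of 14, *Atf3* (-0.97, edgeR adjusted p = 0.0443, and up to 0.181 without replicate 1 or 2 of either genotype), and the interferon regulatory factors 1 of 8, *Irf4*, both lower.

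Antigen presentation and costimulation genes were mixed in their calls and mostly below 0. All 12 MHC class II presentation genes tested had lower values in Zeb1∆M (median -0.97), but 2 were called. *Ifi30*, a lysosomal thiol reductase that prepares antigens, stood at 13.9, 19.2 and 21.6 CPM in Zeb1∆M and at 45.6, 43.4 and 43.5 CPM in Zeb1WT (-1.27, SE 0.21, edgeR adjusted p = 0.00363). *H2-DMb2*, a chain of the peptide-loading molecule that B cells also express, was lower by -1.76 (SE 0.30, edgeR adjusted p = 0.00477), while *H2-Aa*, a classical class II chain, was not called at 503, 339 and 492 CPM against 955, 925 and 755 CPM (-0.98, SE 0.34, edgeR adjusted p = 0.158). The 13 costimulation genes tested gave 1 higher call, *Icosl*, and 2 lower, *Slamf7* and *Cd83*, with the *Cd83* call kept only without replicate 1 of Zeb1∆M (edgeR adjusted p up to 0.135). *Slamf7*, a receptor of the SLAM family, stood at 91.9, 77.0 and 116 CPM in Zeb1∆M and at 227, 227 and 396 CPM in Zeb1WT (-1.58, SE 0.23, edgeR adjusted p = 0.00133). *Itgax*, which encodes CD11c, a marker of dendritic cells and some macrophages, was low throughout and lower in Zeb1∆M, with 0.801, 0.849 and 0.800 CPM against 4.04, 4.72 and 4.09 CPM (-2.38, SE 0.44, edgeR adjusted p = 0.00728).

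Energy metabolism showed few calls, beside 1.75% of all genes tested. Of 27 genes of glycolysis and of glucose and lactate transport, 24 had log2 fold changes below 0 (median -0.47) and 1 was called. *Hk2*, the inducible hexokinase that starts glycolysis, stood at 145, 183 and 159 CPM in Zeb1∆M and at 261, 333 and 298 CPM in Zeb1WT (-0.87, SE 0.18, edgeR adjusted p = 0.0126). Its groups did not overlap, but the call was lost without replicate 2 of Zeb1WT or without replicate 1 or 3 of Zeb1∆M (edgeR adjusted p up to 0.0796). *Slc2a1*, the glucose transporter GLUT1, had 239, 234 and 295 CPM in Zeb1∆M and 424, 308 and 416 CPM in Zeb1WT (-0.58, SE 0.24, edgeR adjusted p = 0.269). *Hk3* (-0.83, edgeR adjusted p = 0.10), *Pdk3*, a pyruvate dehydrogenase kinase (-0.51, edgeR adjusted p = 0.0945), and *Ldha* (-0.39, edgeR adjusted p = 0.444) were not called either.

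All 12 tested protein-coding genes of the mitochondrial genome lay below 0 (median -0.75) and none was called. *mt-Co1*, a subunit of complex IV, stood at 1664, 1705 and 1588 CPM in Zeb1∆M and at 3405, 2952 and 1922 CPM in Zeb1WT, without overlap (-0.74, SE 0.25, edgeR adjusted p = 0.157). Nuclear genes of the respiratory chain, 76 tested, had a median of -0.01 and no call. Mitochondrial ribosomal proteins, 78 tested, had a median of 0.23 with 62 above 0, and mitochondrial tRNA synthetases, 18 tested, a median of 0.35 with 16 above 0, again without a call. In *Lars2*, the synthetase for leucine, 1 Zeb1∆M library stood apart at 969 CPM while the other 2 had 84.1 and 92.7 CPM and Zeb1WT had 82.1, 78.2 and 122 CPM (2.02, edgeR adjusted p = 0.511), and *Lars2* was called only with no filter on low counts. The cytosolic ribosomal proteins pointed the other way, with 77 of 79 below 0 (median -0.37) and no call.

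Of 39 genes of autophagy and mitophagy, 1 was called, beside 1.75% of all genes tested. *Tbc1d17*, a Rab GTPase-activating protein, stood at 27.2, 16.5 and 22.0 CPM in Zeb1∆M and at 44.0, 41.4 and 51.6 CPM in Zeb1WT (-1.06, SE 0.21, edgeR adjusted p = 0.0113). That call was lost without replicate 2 of Zeb1∆M (edgeR adjusted p = 0.0614). *Rab9*, which serves transport to lysosomes, had 11.7, 9.44 and 12.0 CPM against 16.1, 19.1 and 22.2 CPM (-0.79, SE 0.20, edgeR adjusted p = 0.0528), and the autophagy receptor *Sqstm1*, p62, had 338, 263 and 385 CPM against 529, 565 and 492 CPM (-0.68, SE 0.19, edgeR adjusted p = 0.0829). In these 3 genes the groups did not overlap, and only *Tbc1d17* passed the test. *Usp30*, a deubiquitinase that holds back mitophagy, had 5.39, 4.20 and 3.40 CPM in Zeb1∆M and 0.395, 0.199 and 2.97 CPM in Zeb1WT (1.89, SE 0.87, edgeR adjusted p = 0.327). It was called with no filter on low counts (edgeR adjusted p = 0.0419) and without replicate 3 of Zeb1WT, where the log2 fold change was 3.83 (edgeR adjusted p = 0.0308). *Cisd2*, a mitochondrial and endoplasmic reticulum protein, had a log2 fold change of -0.26 (SE 0.17, edgeR adjusted p = 0.495), and *Cdk5rap1*, which modifies mitochondrial tRNAs, one of 1.10 (SE 0.35, edgeR adjusted p = 0.129).

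In amino acid metabolism, 1 of 20 transporters was called, *Slc38a1*, a glutamine carrier (29.0, 20.7 and 32.3 CPM in Zeb1∆M, 52.6, 56.8 and 60.3 CPM in Zeb1WT, -1.05, SE 0.22, edgeR adjusted p = 0.0167), and without replicate 1 or 2 of Zeb1∆M it was not (edgeR adjusted p = 0.0524 and 0.0765). *Slc7a8*, a carrier of neutral amino acids, had 76.8, 131 and 126 CPM in Zeb1∆M and 161, 164 and 156 CPM in Zeb1WT and was not called (-0.53, SE 0.22, edgeR adjusted p = 0.265). Of 17 genes of the ATF4 stress response, the serine pathway enzymes *Phgdh* and *Shmt2* were called lower. *Shmt2* stood at 24.6, 20.3 and 25.2 CPM in Zeb1∆M and at 46.9, 35.2 and 55.7 CPM in Zeb1WT (-0.98, SE 0.19, edgeR adjusted p = 0.00969), and that call too was lost without replicate 2 of Zeb1∆M (edgeR adjusted p = 0.0511). *Phgdh* stood at 10.7, 10.1 and 15.2 CPM against 45.6, 16.5 and 50.2 CPM (-1.64, SE 0.36, edgeR adjusted p = 0.0241), without overlap, and was called only without replicate 2 of Zeb1WT or replicate 3 of Zeb1∆M among the leave-outs (edgeR adjusted p up to 0.109).

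Regulators of survival and growth were lower where they were called. *Bcl2*, which blocks apoptosis, stood at 3.28, 2.25 and 4.15 CPM in Zeb1∆M and at 14.9, 13.1 and 21.5 CPM in Zeb1WT (-2.35, SE 0.47, edgeR adjusted p = 0.0126). *Bcl2l11*, encoding the BIM protein that opposes it, stood at 11.1, 14 and 16.4 CPM in Zeb1∆M and at 37.4, 30.7 and 41.0 CPM in Zeb1WT (-1.39, SE 0.26, edgeR adjusted p = 0.00721). An inhibitor and a promoter of apoptosis were thus lower together, and *Pmaip1*, encoding the promoter NOXA, was lower by -1.28 (SE 0.32, edgeR adjusted p = 0.0451, and up to 0.179 without replicate 1 or 2 of Zeb1WT or replicate 1 or 3 of Zeb1∆M). *Mcl1*, another inhibitor, was not called (49.0, 72.8 and 55.2 CPM against 87.4, 94.8 and 85.3 CPM, -0.59, SE 0.19, edgeR adjusted p = 0.122). The *Bcl2* call was lost without replicate 1 or replicate 2 of Zeb1∆M (edgeR adjusted p = 0.0589 and 0.0676), and *Bcl2* is also a gene of lymphocytes. *Myc*, a transcription factor of growth, stood at 65.9, 55.2 and 62.6 CPM against 129.5, 119 and 220.4 CPM (-1.35, SE 0.26, edgeR adjusted p = 0.00866), and 1 of 22 cell cycle genes was called lower, *Mcm2* (-1.66, edgeR adjusted p = 0.00864, and up to 0.0526 without replicate 1 of either genotype), with 19 of the 22 below 0 (median -0.65).

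Resident and alternatively activated macrophage genes did not share a direction. In the list of 24 large peritoneal macrophage genes, 2 were called higher, *Gata6* and *Lyz1*, none was called lower, and the median was 0.15. *Timd4*, a phosphatidylserine receptor of long-lived resident macrophages, had 348, 434 and 381 CPM in Zeb1∆M and 387, 552 and 441 CPM in Zeb1WT (-0.25, SE 0.24, edgeR adjusted p = 0.699), and the adhesion gene *Icam2* had a log2 fold change of 0.03 (SE 0.28, edgeR adjusted p = 0.980). The summed level of the 24 ran from 82968 to 96640 CPM in Zeb1∆M and from 62647 to 84847 CPM in Zeb1WT, which overlapped. Alternative activation genes, 16 tested, gave 3 lower calls, *Ccl22*, *Socs2* and *Myc*, and none higher (median -0.66), and the arginine, nitric oxide and itaconate list of 12 gave 1, *Ass1* (8.74, 5.40 and 9.10 CPM in Zeb1∆M, 17.9, 14.3 and 22.0 CPM in Zeb1WT, -1.22, SE 0.24, edgeR adjusted p = 0.00969, and 0.0514 without replicate 2 of Zeb1∆M). *Nos2*, the inducible nitric oxide synthase, had 236, 905 and 579.6 CPM in Zeb1∆M and 574, 562 and 1398 CPM in Zeb1WT, overlapping and not called (-0.56, SE 0.45, edgeR adjusted p = 0.630).

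The single dose difference was then set beside the genotype difference after LPS + LPS and after Metformin + LPS, which share no library with it. The LPS + LPS contrast used 2 Zeb1WT libraries, because the fit left out replicate 1 of that group, and the Metformin + LPS libraries bear another code prefix, so treatment and any difference in when they were made cannot be told apart. In LPS + LPS, 203 genes were called higher (1.46% of genes tested) and 189 lower (1.36%), and in Metformin + LPS 224 (1.61%) and 683 (4.9%). Of the 58 genes higher in LPS, 50 (86.2%) had the same sign in LPS + LPS and 37 (63.8%) in Metformin + LPS, and 12 and 3 were called there in the same direction. Over all genes tested, 49.4% were above 0 in LPS + LPS and 51.9% in Metformin + LPS. Of the 186 lower genes, 146 (78.5%) and 143 (76.9%) had the same sign, beside 50.01% and 47.3% of all genes tested, and 31 and 75 were called lower.

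Among genes called in all 3 treatments in the same direction were 2 higher, *Txndc5* and *Fscn1*, and 18 lower. The *Il10* log2 fold change was -1.21 in LPS + LPS (edgeR adjusted p = 0.0126) and -1.03 in Metformin + LPS (edgeR adjusted p = 0.00931). That of *Il1b* was -1.80 (edgeR adjusted p = 0.00886) and -1.65 (edgeR adjusted p = 0.00407), that of *Tnf* -0.90 (edgeR adjusted p = 0.0160) and -0.80 (edgeR adjusted p = 0.00913). *Il1f9*, *Ccr7*, *Edn1*, *Mrgpra2b*, *Retnlg* and *Pmaip1* belonged to the 18 as well. So these cytokine genes were lower in Zeb1∆M under each treatment. *Fam91a1*, higher in LPS, was also higher in LPS + LPS (1.56, edgeR adjusted p = 0.00788) and was not called in Metformin + LPS (-0.16, edgeR adjusted p = 0.764).

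Whether the genotype difference itself differed between treatments was tested as an interaction. That test used the same LPS libraries as the LPS calls, so an overlap with those calls is partly built in. Of all genes tested, 1.75% were called in LPS. Against LPS + LPS 10 genes were called (0.0717% of genes tested), and 3 of them had been called in LPS. *Pou2af1*, a B cell coactivator, was lower in LPS (1.31, 1.25 and 1.30 CPM in Zeb1∆M, 9.21, 9.30 and 10.9 CPM in Zeb1WT, -2.92) and had a value of 1.43 in LPS + LPS, with an edgeR adjusted p of 0.0258 for the interaction. *Serpinb9*, a granzyme B inhibitor, was lower in LPS (12.6, 9.24 and 9.40 CPM against 44.1, 30.8 and 55.5 CPM, -2.06) and had a value of 0.34 in LPS + LPS (edgeR interaction adjusted p = 0.0258). *Gpsm2*, a spindle orientation protein, had -1.03 in LPS (called, but not without replicate 2 of Zeb1WT or replicate 1 or 2 of Zeb1∆M, edgeR adjusted p up to 0.0850) and 1.00 in LPS + LPS (edgeR interaction adjusted p = 0.0258). Interaction counts moved widely with the setting, as given in the closing section, and for the other called genes no difference between treatments was called.

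Against Metformin + LPS 66 genes were called (0.473% of genes tested), 32 of them called in LPS, 7 higher and 25 lower there. Here too the LPS libraries were shared with the LPS calls, which held 1.75% of genes tested. *Crem*, a cyclic AMP-responsive regulator, stood at 64.9, 40.3 and 70.2 CPM in Zeb1∆M and at 142, 144 and 120.2 CPM in Zeb1WT after LPS (-1.21) and was higher in Zeb1∆M after Metformin + LPS (1.11, interaction edgeR adjusted p = 0.00169). *Procr* showed the same reversal (-1.61 in LPS and 1.00 in Metformin + LPS, interaction edgeR adjusted p = 0.00169), as did *Hk2* in sign only (-0.87 and 0.57, interaction edgeR adjusted p = 0.0165). For *F3* (-2.02 and 0.25) and *Hbegf* (-1.58 and 0.82) the interaction edgeR adjusted p-values were 0.0463 and 0.0149. Acid phosphatase *Acp2*, called higher in LPS at 62.8, 83.3 and 71.1 CPM in Zeb1∆M against 49.9, 43.8 and 41.2 CPM in Zeb1WT (0.69), was called lower in Metformin + LPS (-0.72, interaction edgeR adjusted p = 0.0149), although its LPS call was kept only without replicate 1 of Zeb1∆M (edgeR adjusted p up to 0.125). *Lyz1* (2.25 in LPS and -0.69 in Metformin + LPS) differed with an interaction edgeR adjusted p of 0.0410. In each of these genes the genotype difference after metformin lay on the other side of 0 from that after LPS alone. It was called after metformin only in *Crem*, *Procr* and *Acp2*. Of the 32, *Serpinb9* (-2.06 in LPS and -0.30 in Metformin + LPS) and *Nceh1* (-1.41 and -0.11) kept their side of 0, and the rest did not. TMM factors after Metformin + LPS were 0.457 to 0.723 in Zeb1WT and 0.860 to 0.900 in Zeb1∆M, beside 0.883 to 1.09 in LPS. Protein-coding genes took 84.3 to 93.9% of counts there and 96.1 to 97.7% in LPS, and mitochondrial genes 1.19 to 2.79% and 0.529 to 1.12%. The part of this make-up in the interactions was not tested.

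**Figure D5:**
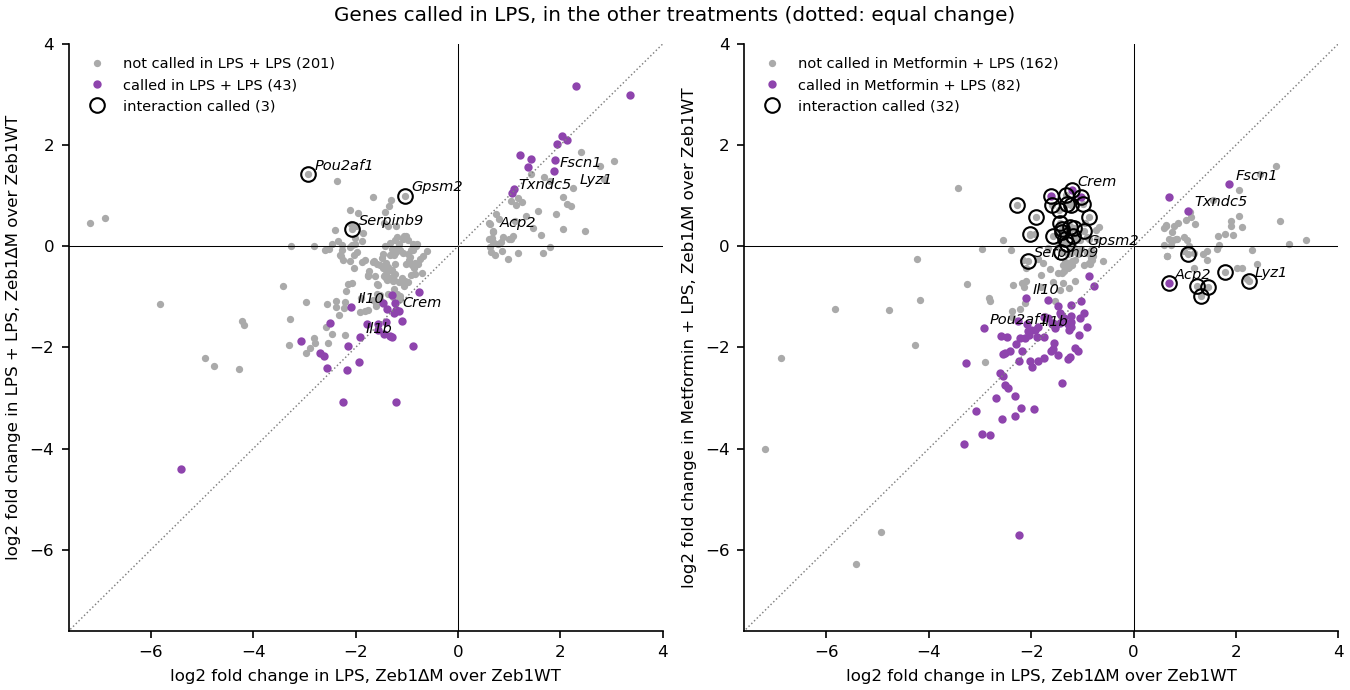
Log2 fold change, Zeb1∆M over Zeb1WT, of the 244 genes called in LPS (horizontal axes) against that in LPS + LPS (left, vertical axis) and in Metformin + LPS (right, vertical axis), in purple where also called there and ringed where the interaction was called. Most points lie on the same side of 0 as in LPS, and ringed genes (3 on the left, 32 on the right) lie off the line of equal change, among them *Pou2af1* and *Crem*.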

How the data were processed

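RNA was isolated with Trizol from sorted peritoneal macrophages and sequenced from TruSeq Stranded mRNA libraries. Whole-number counts per gene, not normalized, were read from the table deposited by the authors, which covers 55573 genes in 18 libraries. The submitters' processing notes name STAR, RSEM, DESeq2 and the build GRCm38 without versions, and whether the counts are rounded estimates is not given in the sources used here. Of the gene IDs, 55480 matched GENCODE M21 with the version ignored.

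Counts were tested in R 4.3.3 with edgeR 4.0.16 (quasi-likelihood test, robust, TMM factors, filterByExpr) in 1 fit over 17 libraries, with a mean per group and no replicate block, and Benjamini-Hochberg adjustment over the 13947 genes tested. The fit left out replicate 1 of Zeb1WT LPS + LPS, since the study's own per-sample sheets hold 2 samples of that group. All groups shared the estimate of spread, and p-values at 3 against 3 depend on it. Levels are CPM with TMM factors. An adjusted p under 0.05 was called. The script was tested on simulated counts.

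Named genes were the 15 largest changes per direction at a mean log2 CPM of at least 3 without overlap between groups, *Zeb1*, *Zeb2*, *Lyz2*, genes the study names for LPS, and at most 5 members of each list. Other names were chosen after their values were seen. A gene that met this rule is not reported here. The libraries compared and the 51 gene lists were chosen with earlier results of these data known. Alternatives were all 18 libraries, only the groups compared, DESeq2 1.42.0 and its size factors, no count filter, a replicate block, a minimum log2 fold change of 1 and each library left out. Fits without robust estimation and with GC content and length trends removed were added after seeing the data. Correlations between same-numbered libraries of the 2 genotypes were -0.0015, 0.051 and 0.020, so the numbers were not taken as pairs.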

Additional observations from a re-analysis of the deposited data

Results flagged for a closer look

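The genotype difference after LPS differed from that after another treatment, by the interaction test, in 17 of the genes named or listed here, given as the other treatment's log2 fold change minus that in LPS with edgeR adjusted p. Toward LPS + LPS, the interaction was 4.36 for *Pou2af1*, 2.40 for *Serpinb9* and 2.03 for *Gpsm2* (edgeR adjusted p = 0.0258 for each).

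Toward Metformin + LPS, positive values, meaning that the Zeb1∆M deficit was smaller or turned round, were 2.62 for *Procr*, 2.32 for *Crem*, 2.48 for *Socs2*, 2.41 for *Hbegf*, 2.27 for *F3*, 1.89 for the transcription repressor gene *Prdm1*, 1.76 for *Serpinb9*, 1.77 for *Slamf7*, 1.74 for the kinase gene *Sgk1*, 1.44 for *Hk2* and 1.28 for *Shmt2*. Their edgeR adjusted p-values ran from 0.00169 in *Procr* and *Crem* to 0.0463 in *F3* and *Shmt2*. Negative values were -2.94 for *Lyz1*, -2.31 for *Ubp1*, -2.26 for *Fam214b* and -1.41 for *Acp2* (edgeR adjusted p from 0.0149 in *Acp2* to 0.0484 in *Fam214b*). The Metformin + LPS libraries bear another code prefix, so treatment and set of libraries cannot be told apart.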

How the results depend on the processing

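None of the 244 called genes changed sign under 14 alternatives, and 67 were called in each. The total of 244 called genes in LPS (58 higher, 186 lower) became 628 with DESeq2 (161 and 467) and 778 without the count filter (294 and 484), and 36 and 31 genes were higher with all 18 libraries and with the 6 LPS libraries alone. Leaving out 1 library gave 107 to 457 genes in all, 19 to 262 higher and 83 to 195 lower. The highest total and the only one with more higher than lower genes (262 against 195) came without replicate 3 of Zeb1WT, and the lowest without replicate 1 of Zeb1∆M. With the 6 LPS libraries alone 217 genes were called, 162 of them shared with the 244. With GC content and length trends removed 290 genes were called, 220 of them shared. Called higher genes had a median GC content of 51.9%, lower genes 48.6% and all tested 49.1%. Over the settings the median of all genes ran from -0.03 to 0.02.

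In LPS + LPS, the 203 higher and 189 lower called genes became 88 with all 18 libraries (62 higher and 26 lower), 896 with DESeq2, 1066 without the filter and 110 to 244 with a library left out. In Metformin + LPS, 907 became 503 with only the groups compared, 1408 with DESeq2 and 391 to 1104 with a library left out. The LPS + LPS interaction, 10 genes, gave 2 with all 18 libraries, 4 with only the groups compared, 154 with DESeq2, 324 without the filter, 28 with GC and length trends removed and 4 to 58 with a library left out. The Metformin interaction, 66 genes, gave 27 with all 18 libraries, 380 with DESeq2, 639 without the filter and 3 to 209 with a library left out, the lowest without replicate 1 of Zeb1∆M Metformin + LPS and the highest without replicate 3 of Zeb1WT LPS. The cause of these shifts was not tested, and a leave-out also has fewer samples.

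A replicate block gave 216 genes in LPS (49 higher, 167 lower) and 16 for the LPS + LPS interaction, though the numbers do not pair the libraries by their correlations. Of genes not called, *Zeb2* ran from -0.27 without replicate 2 of Zeb1∆M and turned to 0.04, 0.11 and 0.02 without replicate 2 of Zeb1WT and without replicates 1 and 3 of Zeb1∆M, and the LPS co-receptor gene *Cd14* (-0.17 with all 6 libraries) ran from -0.50 without replicate 1 of Zeb1∆M to 0.10 without replicate 2 of Zeb1∆M. *Icam2*, *Adgre1* and *Myd88* turned to -0.0076, -0.012 and -0.031 with DESeq2 size factors and to -0.0073, -0.011 and -0.030 with DESeq2, and *Csf1r*, *Myd88* and *Ly96* to -0.00088, -0.0055 and 0.18 with GC and length trends removed. With a library left out, *Icam2* ran from -0.11 to 0.20, *Adgre1* from -0.099 to 0.23, *Csf1r* from -0.12 to 0.31, *Myd88* from -0.035 to 0.070, *Ly96* from -0.24 to 0.00011, *Nos2* from -1.05 to 0.014 and *Lars2* from -0.089 to 2.50. None of these was called, except *Lars2* with no filter on low counts. Beside the calls lost with a library left out, calls ended with all 18 libraries in *Atf3*, *Bank1*, *Cebpa*, *Creb3l1*, *Desi2*, *Dnajc25*, *Fam214b*, *Gata6*, *Gpsm2*, *Mtmr1*, *Pmaip1*, *Retnlg*, *Tprgl*, *Ubp1* and *Usp1*, and with only the groups compared in *Acp2*, *Ass1*, *Atf3*, *Bank1*, *Cd83*, *Cxcl3*, *Desi2*, *Dnajc25*, *Fam214b*, *Gata6*, *Mtmr1*, *Phgdh*, *Pmaip1*, *Rel*, *Tnf*, *Tprgl* and *Usp1*. The block ended those of *Desi2*, *Fam214b*, *Pmaip1*, *Retnlg*, *Tprgl* and *Usp1*. Removing GC and length trends ended those of *Creb3l1* and *Retnlg* (edgeR adjusted p = 0.0591 and 0.0576). Without the count filter the call of *Acp2* was lost (edgeR adjusted p = 0.0712). DESeq2 also called *Il1a*, *Mcl1*, *Ccl2*, *Cxcl10*, *Cxcl13*, *Hk3*, *Pdk3*, *Rab9*, *Sqstm1* and *mt-Co1*. With only the groups compared, *Il1a*, *Ccl2* and *H2-Aa* were called lower as well (edgeR adjusted p = 0.0341, 0.0353 and 0.0311). With GC and length trends removed, *Sqstm1* was called lower and *Cxcl13* higher (edgeR adjusted p = 0.0376 and 0.0285). DESeq2 size factors added *Rab9* and the replicate block *Hk3*, both lower. Without the count filter, *Il1a*, *Ccl2*, *Cxcl10*, *Hk3* and *H2-Aa* were called lower and *Cxcl13*, *Bcl3* and *Odc1* higher.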
